A study of Mus musculus with 2 samples.

Results

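Pparg and 9 genes of lipid handling were followed in MDSCs, myeloid-derived suppressor cells grown from mouse bone marrow, in 2 libraries of single cells. The 10 genes were chosen by name from the 32285 features of the count matrices: Pparg, Lpl, Fabp4, Fabp5, Cd36, Plin2, G0s2, Pnpla2, Abca1 and Abcg1. Earlier results of these data were known when they were chosen. Marrow came from female C57BL/6 mice aged 10 weeks, and both cultures ran for 4 days with the cytokines IL-6 (50 ng/mL) and GM-CSF (50 ng/mL). One condition (DAB) also had dabrafenib, an inhibitor of the kinase BRAF, at 1.5 μM, and the other (DMSO) had the solvent alone. Each condition was 1 library, so no difference between them has a replicate check, no test was made, and every interval given here covers counting error only. How many mice contributed to a library, the sources used here do not state.

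PPARγ, the product of Pparg, is a nuclear receptor that binds DNA as a partner of RXR, is activated by fatty acids and their derivatives, and switches on genes of lipid uptake and storage in fat cells and macrophages. In myeloid cells Lpl, Fabp4, Cd36 and Plin2 are textbook PPARγ target genes, and Abca1 and Abcg1 are textbook targets of the oxysterol receptors, the LXRs. Fatty acids released by lipoprotein lipase (Lpl) enter the cell partly through Cd36, are carried by fatty acid binding proteins (Fabp4, Fabp5), and are stored as triglyceride in droplets that perilipin 2 (Plin2) coats. Adipose triglyceride lipase (Pnpla2) takes the first step in opening the store, and G0s2 is its protein inhibitor. Abca1 and Abcg1 export cholesterol and phospholipid.

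After cells with many mitochondrial UMIs and doublets were removed, 9032 DMSO cells (92382686 UMIs) and 10476 DAB cells (140247733 UMIs) remained, with medians of 7506.5 and 9444.5 UMIs per cell, and 120 cell barcodes occurred in both. The cells formed 26 clusters, made without the 10 genes or any gene of the lipid lists, and 23 of them held 50 or more cells from both libraries. Clusters were named from marker lists, and S100a8 was a further condition for some granulocyte names. None of these genes is among the 10. The naming gave 10 named classes for comparison, while 11 of the 23 clusters stayed unnamed and are called by letter. The mix of clusters differed between the libraries in both classes that pooled clusters. Cluster A held most mature PMN-like cells in DMSO while clusters J and U held most in DAB. Chemokine-high granulocyte-like cells were clusters E and L, with 193 and 195 cells in DMSO and 1150 and 677 in DAB. The macrophage-like cluster is named with reserve, since the platelet genes Pf4 and Ppbp also led it and its C1q genes were nearly absent in DAB: C1qb stood at 588 CPM in DMSO and at 23.1 CPM in DAB. The mature monocyte-like cluster was led by MHC class II genes such as H2-Eb1 and H2-Ab1. Cluster N had a low UMI count (medians of 2619 and 3818.5) and was led by long noncoding and neuronal genes such as Gm26917, Gria3 and Neat1. B cell-like cells, which are not a myeloid class, served as the gauge of free RNA.

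The 10 genes lie on 8 chromosomes of GRCm38 (mm10). Pparg spans chr6:115360951-115490399 on the plus strand, and Fabp4 (chr3:10204088-10208576, minus strand) and Fabp5 (chr3:10012548-10016607, plus strand) are neighbours 187480 bp apart. RefSeq promoter windows (GRCm38.p6, 250 bases before to 50 after an annotated start) were found for 6 of the 10 genes, in 8 windows, 3 of them for Pparg. They are shown because PPARγ and its partners read the core motif AGGTCA, and because Pparg has several starts that a count per gene cannot separate. Capitals mark AGGTCA on either strand (TGACCT on the minus strand) or, in the last Pparg window, the C/EBP motif TTGCNNAA on either strand, which C/EBP proteins bind.
Pparg, the first start, chr6:115360894-115361193, plus strand: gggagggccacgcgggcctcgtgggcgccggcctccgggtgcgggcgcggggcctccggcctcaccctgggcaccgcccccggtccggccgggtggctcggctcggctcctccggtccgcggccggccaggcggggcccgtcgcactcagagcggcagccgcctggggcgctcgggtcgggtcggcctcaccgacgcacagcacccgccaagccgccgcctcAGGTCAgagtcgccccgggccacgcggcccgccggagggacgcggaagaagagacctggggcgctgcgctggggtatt
Pparg, the last start, chr6:115421816-115422115, plus strand: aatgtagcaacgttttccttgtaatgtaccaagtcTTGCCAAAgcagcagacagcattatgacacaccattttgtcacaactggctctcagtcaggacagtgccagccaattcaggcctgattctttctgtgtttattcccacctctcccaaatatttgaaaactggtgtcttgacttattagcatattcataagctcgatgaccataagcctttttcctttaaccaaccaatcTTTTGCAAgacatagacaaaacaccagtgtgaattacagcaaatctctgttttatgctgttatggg
Cd36, chr5:17835847-17836146, minus strand: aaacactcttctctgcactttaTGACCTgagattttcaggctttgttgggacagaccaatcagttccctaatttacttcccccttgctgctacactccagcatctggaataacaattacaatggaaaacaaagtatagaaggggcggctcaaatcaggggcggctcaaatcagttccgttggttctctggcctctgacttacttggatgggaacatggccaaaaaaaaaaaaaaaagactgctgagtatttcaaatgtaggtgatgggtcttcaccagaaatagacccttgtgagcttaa
Plin2, chr4:86670010-86670309, minus strand: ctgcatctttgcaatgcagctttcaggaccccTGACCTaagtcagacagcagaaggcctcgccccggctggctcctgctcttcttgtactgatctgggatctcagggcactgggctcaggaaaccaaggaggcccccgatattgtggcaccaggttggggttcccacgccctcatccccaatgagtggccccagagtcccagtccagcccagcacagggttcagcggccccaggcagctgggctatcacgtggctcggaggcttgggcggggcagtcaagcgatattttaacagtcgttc
The AGGTCA core began 28 bases before the first Pparg start, 228 before the Cd36 start and 218 before the Plin2 start, and another copy lay 9 bases before the middle Pparg start. It was present in 4 of the 8 windows, beside 16.3% of all 32851 windows of this length. The C/EBP motif was in 1 window, at 215 and 16 bases before the last Pparg start, beside 10.8% of all windows. The paired forms of the core, AGGTCANAGGTCA (a DR1) and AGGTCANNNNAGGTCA (a DR4), both of which contain it, and TGATGNAA (an ATF4 and C/EBP composite, which can overlap TTGCNNAA) were in 0 of the 8 windows, beside 0.0396%, 0.0152% and 3.97% of all windows. A match of letters is not evidence of binding.

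Over all cells, 7 of the 10 genes were lower in DAB and 1 was higher. Past the fold means here a log2 ratio of CPM (the gene's UMIs scaled to a total of 1000000) of at least 0.5 in size with a 95% interval that leaves out 0, in a gene with at least 20 UMIs. By the same rule 16.7% of the 16362 genes counted were lower and 13.8% were higher, and the median log2 ratio was -0.75 over the 10 genes beside -0.02 over all genes. Cd36 had the largest difference, from 16.8 CPM (95% interval 16.0 to 17.6) in DMSO to 1.25 CPM (1.07 to 1.45) in DAB, a log2 ratio of -3.75. The carrier genes followed. Fabp5 was at 363 CPM in DMSO and 81.8 CPM in DAB (log2 ratio -2.15, -2.18 to -2.12), and Fabp4, a rare transcript with 142 and 34 UMIs, had a log2 ratio of -2.66 (-3.25 to -2.12). Lpl was at 482 and 160 CPM (log2 ratio -1.59), and Pparg itself at 47.0 and 26.8 CPM (log2 ratio -0.81, -0.87 to -0.74). The storage side differed in direction. G0s2, the lipase inhibitor, was at 27.5 CPM in DMSO and 76.7 CPM in DAB (log2 ratio 1.48, 1.42 to 1.54), whereas Plin2 (172 and 211 CPM, log2 ratio 0.29) and Pnpla2 (43.2 and 35.4 CPM, log2 ratio -0.29) were not past the fold.

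**Figure D1:**
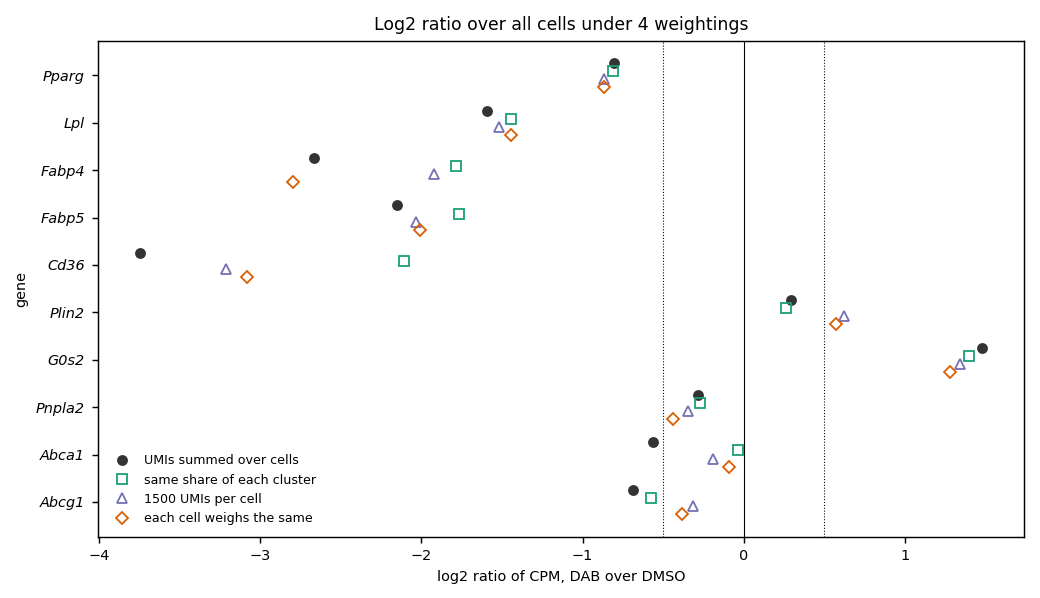
Log2 ratio of CPM (DAB over DMSO, horizontal axis) of each of the 10 genes (vertical axis) with UMIs summed over all cells, with each cluster given the same share in both libraries, with every cell thinned to 1500 UMIs, and with each cell weighing the same; dotted lines mark a log2 ratio of 0.5 in size. Pparg stays between -0.87 and -0.81 under all 4, while Abca1 lies between -0.56 and -0.03 and Plin2 between 0.26 and 0.62.

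The libraries held different shares of the classes, and a class that is rarer cannot be told apart from a lower level per cell in a sum over all cells. With each cluster given the same share in both libraries, Pparg kept its log2 ratio (-0.81), Lpl had -1.44, Fabp5 -1.77, Fabp4 -1.79, G0s2 1.40 and Abcg1 -0.58. Cd36 moved most, from -3.75 to -2.11, and Abca1 went from -0.56 to -0.03, which is not past the fold. Cd36 was carried in part by cluster Y, which had 135 DMSO and 15 DAB cells and was not compared: it held 1.49% of DMSO cells but 24.0% of their Cd36 UMIs, at 135 CPM. Giving each cell the same weight, or thinning each cell to 1500 UMIs, put Plin2 past the fold (log2 ratio 0.57 and 0.62) and took Abca1 (-0.09 and -0.19) and Abcg1 (-0.39 and -0.32) out of it. Both weightings count shallow cells more heavily than the sum does.

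After thinning to 1500 UMIs, shares of cells with a UMI had the same direction as the summed levels for each of the 10 genes, and without thinning the exception was Pnpla2, at 30.4% and 30.9%. At least 1 Pparg UMI was seen in 6.89% of 8596 thinned DMSO cells (6.36 to 7.44) and in 3.80% of 10184 DAB cells (3.44 to 4.19), and without thinning in 27.4% and 20.5%. Among B cell-like cells no Pparg UMI was seen in 129 DMSO and 175 DAB cells, which allows shares of up to 2.33% and 1.71%. Lpl was seen in 23.4% and 10.1% of thinned cells, against 1.55% and 0.571% of B cell-like cells. Fabp5 was seen in 16.7% and 5.73%, against 3.10% and 2.29%, though in DAB the Fabp5 CPM of B cell-like cells lay above that of some granulocyte classes. Plin2 was seen in 21.5% and 29.5%, against 0.775% and 2.86%, and G0s2 in 5.11% and 11.5%, against 0% of DMSO B cell-like cells (a limit of 2.33%) and 0.571% of DAB ones. Cd36 went from 1.45% of DMSO cells to 0.137% of DAB cells, and a Cd36 UMI was in 0 B cell-like cells. Unthinned, the shares were 39.98% and 25.1% for Lpl, 35.6% and 22.3% for Fabp5, 59.2% and 73.2% for Plin2, 16.5% and 38.5% for G0s2, and 5.64% and 0.850% for Cd36. Median UMIs per B cell-like cell were 3976 and 4867, below the library medians given above.

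**Figure D2:**
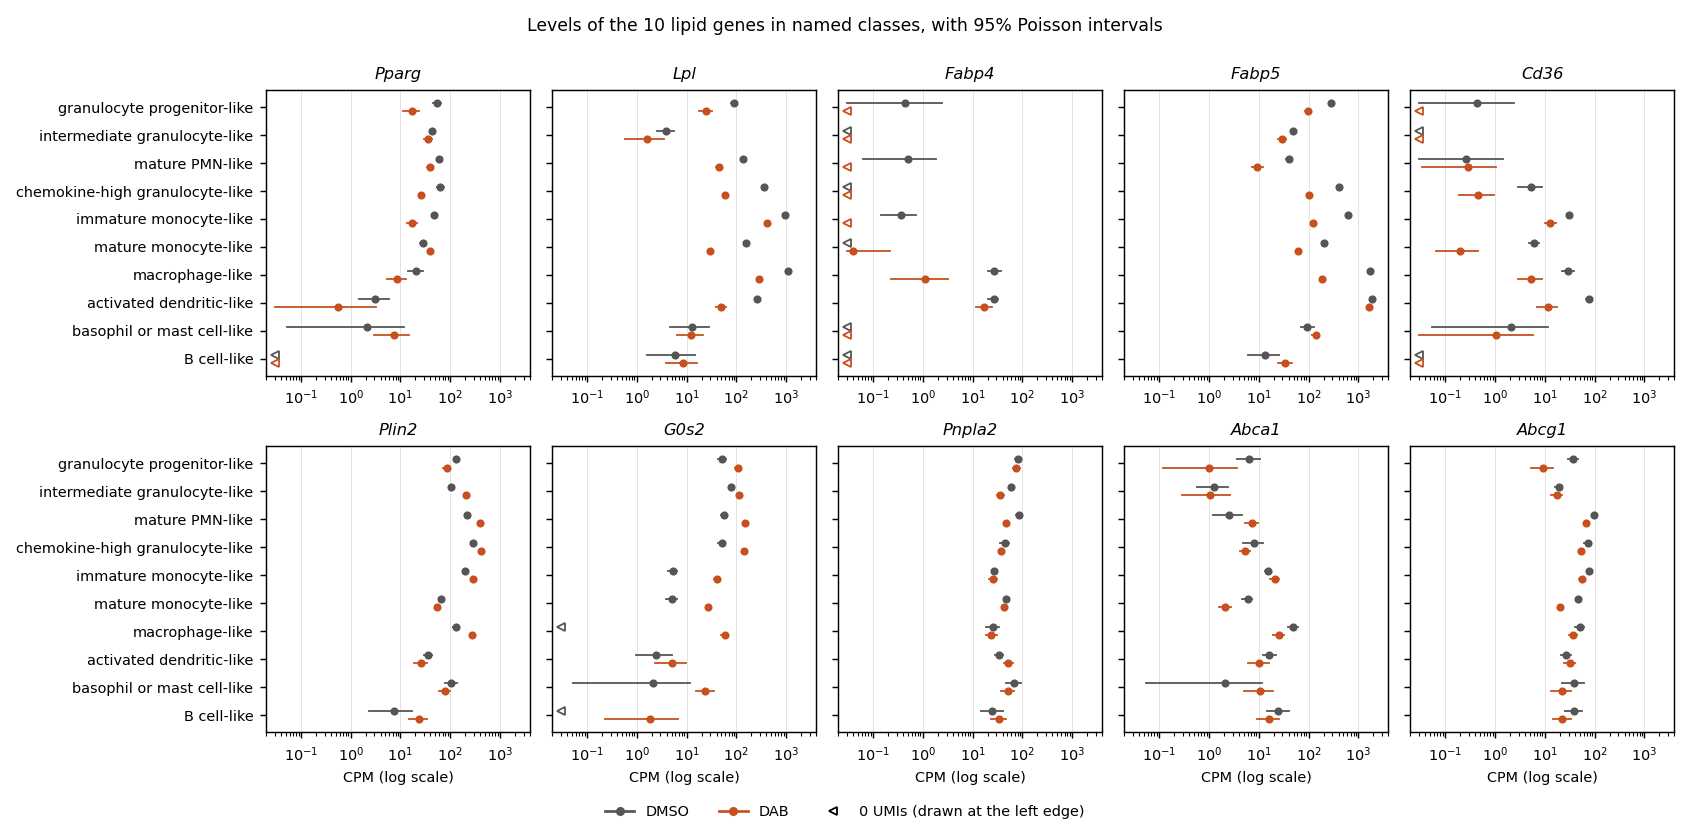
CPM of each gene (horizontal axis, log scale) in the 10 named classes (vertical axis) in DMSO (grey) and DAB (orange), with exact 95% Poisson intervals as bars; open triangles at the left edge stand for 0 UMIs. Lpl, Fabp5 and Cd36 sit to the left in DAB in most myeloid classes, G0s2 sits to the right, and Fabp5 in activated dendritic-like cells (1905 and 1668 CPM) hardly moves.

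Across the 10 named classes, the 10 genes gave 77 pairs of gene and class with at least 20 UMIs, of which 33 were lower and 16 higher in DAB, beside 13.7% and 14.3% of all such pairs over all genes. The lower pairs were mostly of the uptake and carrier genes. Macrophage-like cells had 6 of 10 lower (Pparg, Lpl, Fabp4, Fabp5, Cd36, Abca1, beside 13% of all genes), and Plin2 and G0s2 higher (11.5%). Granulocyte progenitor-like cells had 5 of 7 lower (14.5%) and 1 higher (19.6%). Mature monocyte-like cells had 5 of 9 lower (18.7%) and 1 higher (16.2%), and immature monocyte-like cells 4 of 9 lower (18.9%) and 1 higher (8.89%). Of the granulocyte classes, mature PMN-like cells had 5 of 8 lower (10.5%) and 3 higher (16.4%), chemokine-high granulocyte-like cells 4 of 9 lower (13.6%) and 1 higher (7.78%), and intermediate granulocyte-like cells 2 of 7 lower (12.6%) and 2 higher (25.5%). G0s2 was the higher gene wherever a monocyte or granulocyte class had only 1. Activated dendritic-like cells had 2 of 8 lower (12.8%) and 1 higher (10.2%). Basophil or mast cell-like cells had 0 of 5 lower (9.29%) and 2 higher (12%), and B cell-like cells 0 of 5 lower (8.08%) and 2 higher (15.5%). Of the pairs past the fold, 48 had UMIs in both libraries, and 38 of them kept their direction and stayed at 0.5 or more in size in each of up to 6 clusterings (26 of 33 lower and 12 of 15 higher). Of the other 10, 4 turned in direction under 1 clustering, and they are named with their ranges where they are described. Over the 23 clusters, 12.3% of all gene and cluster pairs were lower and 12.3% were higher.

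Pparg was lower in 16 of the 20 clusters where it had 20 UMIs and higher in 0. Among genes with 20 UMIs in at least 10 clusters, 1.45% were lower in at least 16. In DMSO its level was highest in cluster N (145 CPM, 121 to 172), then in the unnamed cluster M (94.7 CPM), which was led by Chil3, and in clusters O and C, whose intervals overlap. Cluster N was shallow and had the highest median mitochondrial share of all clusters, 4.07% of UMIs. Pparg spans 129449 bp, and whether intronic reads were counted is not stated, so its level in cluster N is read with reserve. Among the named classes it was at 63.6 CPM in chemokine-high granulocyte-like cells, 60.4 in mature PMN-like cells, 54.5 in granulocyte progenitor-like cells, 47.6 in immature monocyte-like cells and 43.6 in intermediate granulocyte-like cells. It was lower in mature monocyte-like cells (27.9 CPM), in macrophage-like cells (20.8 CPM) and in activated dendritic-like cells (3.15 CPM, 9 UMIs), so the granulocyte classes stood above the antigen-presenting ones. Between the libraries the log2 ratio was -1.71 (-2.31 to -1.14) in granulocyte progenitor-like, -1.47 in immature monocyte-like, -1.29 in chemokine-high granulocyte-like, -1.28 in macrophage-like and -0.64 in mature PMN-like cells. Over 6 clusterings it ranged from -1.71 to -0.32 in granulocyte progenitor-like and from -0.65 to -0.18 in mature PMN-like cells, so both were short of the fold in some. Within the last class it was -1.35 in cluster A and -0.32 in cluster J, where the interval of -0.72 to 0.10 takes in 0. Mature monocyte-like cells went the other way, from 27.9 CPM in DMSO to 38.3 CPM in DAB (log2 ratio 0.46, 0.28 to 0.64), short of the fold of 0.5. Their place in the order of 21 classes and clusters went from rank 15 in DMSO to rank 5 in DAB. In the 6 clusterings tried the log2 ratio in this class lay between 0.42 and 1.72. Pparg was at 0 UMIs in B cell-like cells of both libraries.

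**Figure D3:**
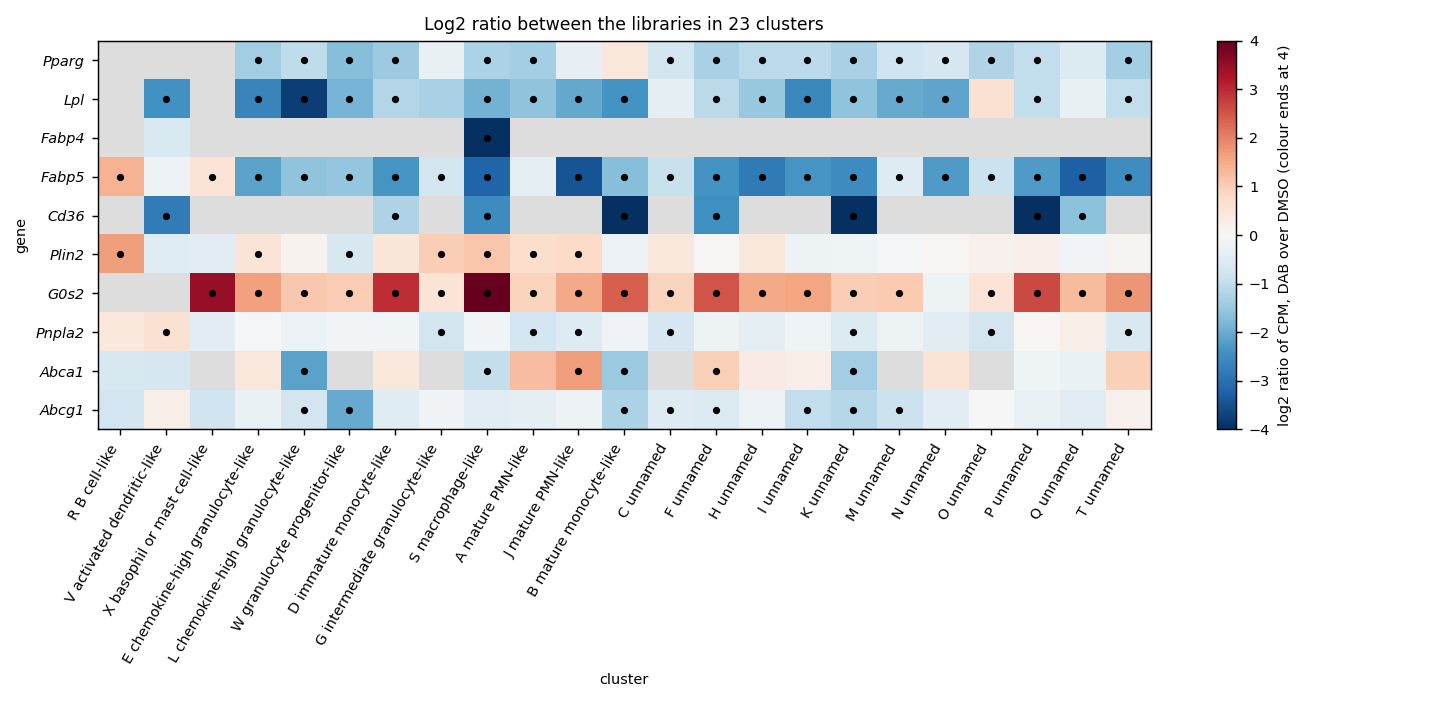
Log2 ratio of CPM (DAB over DMSO, colour) of each gene (vertical axis) in the 23 clusters compared (horizontal axis); a black dot marks a ratio past the fold, grey marks fewer than 20 UMIs, and G0s2 in cluster S, which has 0 UMIs in DMSO, is drawn at the end of the scale. The rows of Pparg, Lpl and Fabp5 are mostly blue (16, 17 and 19 clusters lower), the row of Cd36 is blue in the 8 clusters that had 20 UMIs of it, and the row of G0s2 is red in 20 clusters.

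Lpl, the secreted lipase that frees fatty acids from lipoproteins, was lower in 17 of 21 clusters and higher in 0, beside 1.08% of genes lower in at least 17. Among the clusters compared, its DMSO levels were highest in cluster P (1221 CPM), macrophage-like cells (1087 CPM), immature monocyte-like cells (936 CPM) and cluster F (812 CPM), whose intervals do not overlap, while cluster Y, which was not compared, stood at 1217 CPM, within the interval of cluster P. In DAB these stood at 622, 291, 416 and 382 CPM, so macrophage-like cells came behind immature monocyte-like cells and cluster F, and their interval overlapped that of cluster T (275 CPM). The log2 ratio was -1.90 (-2.02 to -1.78) in macrophage-like and -1.17 (-1.24 to -1.10) in immature monocyte-like cells. It was larger in size in chemokine-high granulocyte-like cells (359 to 58.4 CPM, -2.62), activated dendritic-like cells (264 to 49.6 CPM, -2.41) and mature monocyte-like cells (155 to 29.7 CPM, -2.38). Over the clusterings these ratios ranged from -2.68 to -1.98, from -2.43 to -1.69 and from -2.76 to -1.71. In macrophage-like cells the range was -1.90 to -1.69, which only the chemokine-high range does not overlap. Intermediate granulocyte-like cells were at 3.89 CPM in DMSO and 1.59 CPM in DAB, at or below the 5.88 and 8.40 CPM of B cell-like cells, and are read as background. Immature monocyte-like cells held 41.1% of all Lpl UMIs in DMSO and 8.73% in DAB, as their share of cells went from 12.2% to 2.69%. Cluster F, led by Il2ra, Cd200r3 and Cpa3, held 11.2% and 39.6% of the UMIs, with 3.90% and 9.26% of the cells.

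Cd36, the scavenger receptor and fatty acid translocase, was lower in all 8 clusters that had 20 UMIs of it. Among genes with 20 UMIs in at least 10 clusters, which leaves out Cd36 itself, 10.2% were lower in at least 8. Activated dendritic-like cells had 78.5 CPM in DMSO (68.6 to 89.5) and 11.4 CPM in DAB (log2 ratio -2.79). Immature monocyte-like cells had 30.5 and 12.97 CPM (-1.24), macrophage-like cells 29.7 and 5.22 CPM (-2.51), and mature monocyte-like cells 6.22 and 0.200 CPM (-4.96, from 76 and 5 UMIs). In DAB the intervals of immature monocyte-like and activated dendritic-like cells overlap. Mature PMN-like cells had 1 and 2 UMIs and intermediate granulocyte-like cells 0 in both libraries, so no difference was detectable there at this depth. In the macrophage-like class the Cd36 value depended on the clustering, from -2.54 to -0.62 over the 5 clusterings that gave this class. In immature monocyte-like cells it ranged from -3.26 to 0.76 over 6 clusterings, higher in DAB where the libraries were not aligned, so no direction of Cd36 held there.

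The fatty acid binding proteins set the dendritic and macrophage classes apart from each other. Fabp5 was at 1905 CPM in activated dendritic-like cells of DMSO and at 1668 CPM in DAB (log2 ratio -0.19, -0.26 to -0.13), not past the fold. In macrophage-like cells it was at 1751 CPM in DMSO, below the dendritic level by more than counting error, and at 188 CPM in DAB (-3.22, -3.35 to -3.08). The intervals of these log2 ratios do not overlap. The DMSO order of both classes turned at a clustering resolution of 0.5 and with each cell weighing the same, where macrophage-like cells were highest. Fabp4 behaved alike: 26.3 and 17.1 CPM in activated dendritic-like cells (log2 ratio -0.62, with an interval from -1.28 to 0.01), and 27.3 and 1.12 CPM in macrophage-like cells (-4.61, from 46 and 3 UMIs). These classes held 105 and 49 of the 176 Fabp4 UMIs of the series. Macrophage markers moved with these values. The summed level of all 6 macrophage markers, each detected, went from 1547 to 273 CPM in macrophage-like cells. Of the activated dendritic markers, Ccr7 went from 708 to 1330 CPM and Fscn1 from 480 to 1083 CPM in their class. The other markers of that list and its sum are not given here, so no direction is read for the list. The part of these shifts in the Fabp4 and Fabp5 values was not tested.

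Over all clusters compared, the macrophage-like one included, Fabp5 was lower in 19 of 23 and higher in 2, beside 0.643% of genes lower in at least 19. Immature monocyte-like cells went from 622 to 122 CPM (log2 ratio -2.35), chemokine-high granulocyte-like cells from 406 to 102 CPM (-1.99), mature monocyte-like cells from 205 to 62.8 CPM (-1.70) and granulocyte progenitor-like cells from 288 to 98.6 CPM (-1.54). In mature PMN-like cells the log2 ratio was -2.11, with cluster J at -3.45 from 71.0 to 6.50 CPM. Cluster A, at 17.5 and 13.6 CPM, stood near B cell-like cells in DMSO (13.2 CPM) and below them in DAB (34.5 CPM). In DAB, mature PMN-like cells (9.45 CPM) and cluster H (16.2 CPM) also lay below B cell-like cells, with intervals that do not overlap. Clusters N, O and C and intermediate granulocyte-like cells (19.0 to 29.7 CPM) lay below with overlapping intervals. Whether Fabp5 there is free RNA, or B cell-like cells are no gauge for this gene, was not tested. The clusters with a higher level in DAB were the B cell-like cells (13.2 to 34.5 CPM, 9 and 37 UMIs) and basophil or mast cell-like cells (95.3 to 138 CPM). Neither held without doublet removal, where the log2 ratios were -0.60 and -0.20.

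Plin2, which coats lipid droplets, was not past the fold in 16 of 23 clusters. It was higher in 6, the B cell-like cluster among them, and lower in 1, beside 15% of genes higher in at least 6, so this count is not unusual. Macrophage-like cells went from 128 to 278 CPM (log2 ratio 1.12, 0.90 to 1.34), intermediate granulocyte-like cells from 103 to 202 CPM (0.98) and mature PMN-like cells from 220 to 399 CPM (0.86), with 0.69 in cluster A and 0.78 in cluster J. Immature monocyte-like cells were at 201 and 279 CPM (0.48, not past the fold) and mature monocyte-like cells at 64.3 and 55.1 CPM (-0.22, not past the fold), and over 6 clusterings these ratios ranged from -0.07 to 0.61 and from -0.22 to 0.45. Granulocyte progenitor-like cells were lower, at 131 and 84.5 CPM (-0.64, -0.92 to -0.36, but -0.32 in 1 clustering). Among the named classes the highest DAB levels, 406 CPM in chemokine-high granulocyte-like and 399 CPM in mature PMN-like cells, have overlapping intervals. In B cell-like cells Plin2 was at 7.35 and 23.3 CPM from 5 and 25 UMIs.

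G0s2 was higher in DAB in 20 of 21 clusters and lower in 0, beside 0.399% of genes higher in at least 20. In DMSO it was a granulocyte transcript, at 78.7 CPM in intermediate granulocyte-like, 55.3 in mature PMN-like, 52.3 in granulocyte progenitor-like and 50.7 in chemokine-high granulocyte-like cells, against 5.31 CPM in immature and 5.08 CPM in mature monocyte-like cells and 0 UMIs in macrophage-like cells. In DAB these granulocyte classes were at 115, 146, 106 and 145 CPM, with log2 ratios from 0.55 to 1.51. The log2 ratio was 2.38 (2.01 to 2.78) in mature monocyte-like cells, at 26.5 CPM in DAB, and 2.30 to 3.15 over 6 clusterings. In immature monocyte-like cells it was 2.95 (2.60 to 3.31), at 41.05 CPM in DAB, but 0.98 to 3.21 over the clusterings, the lowest where the libraries were not aligned. Macrophage-like cells of DAB had 157 UMIs of G0s2 (58.6 CPM), 32.9-fold higher than DMSO when a count of 0 is given 3 UMIs in the class. The exact 95% interval of the log2 ratio began at 4.72, which is below that fold. The C1q genes of this class were nearly absent in DAB, and whether like cells are compared was not tested. B cell-like cells had 0 UMIs in DMSO (an upper limit of 5.42 CPM) and 2 UMIs in DAB (1.87 CPM, 0.23 to 6.74). The monocyte and macrophage levels of DAB lie above that interval. The DMSO levels of both monocyte classes lie below the DMSO limit, so they are not told apart from this gauge. The part of free RNA in these ratios was not tested. Basophil or mast cell-like cells had 1 and 23 UMIs (log2 ratio 3.50, 0.88 to 8.86). Cluster N was the exception, at 29.2 and 25.3 CPM.

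Pnpla2, the lipase that G0s2 inhibits, varied less between classes, from 25.0 CPM in B cell-like to 84.5 CPM in mature PMN-like cells of DMSO. It was lower in mature PMN-like cells of DAB (47.2 CPM, log2 ratio -0.84, -1.06 to -0.62) and in intermediate granulocyte-like cells (60.2 to 36.0 CPM, -0.74), higher in activated dendritic-like cells (34.0 to 51.8 CPM, 0.61, 0.18 to 1.04), and not past the fold in the other 7 named classes. Over 6 clusterings the ratio reached -0.41 in mature PMN-like and 0.48 in activated dendritic-like cells, which are short of the fold. Over clusters it was lower in 7 and higher in 1 of 23, beside 12.7% of genes lower in at least 7. The log2 ratio of G0s2 exceeded that of Pnpla2 in all 19 classes and clusters where both could be formed. Since G0s2 was higher in 20 of 21 clusters and Pnpla2 not past the fold in 15 of 23, this count largely restates the G0s2 result. How many other genes G0s2 exceeds in this way was not counted, so no relation between lipase and inhibitor is read from it. The excess ran from 0.22 in cluster N to 3.91 in basophil or mast cell-like cells (G0s2 on 1 and 23 UMIs), with 2.24 in mature PMN-like and 3.05 in immature monocyte-like cells. In cluster N, cluster Q and activated dendritic-like cells (G0s2 on 7 and 9 UMIs) the intervals of both log2 ratios overlap, so no excess is read there.

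The cholesterol exporters were split. Abcg1 was lower in 8 of 23 clusters and higher in 0, beside 10.2% of genes lower in at least 8. Its log2 ratio was -2.03 (-2.85 to -1.29) in granulocyte progenitor-like cells (37.2 to 9.10 CPM), -1.25 in mature monocyte-like cells (47.6 to 19.9 CPM) and -0.51 in mature PMN-like cells (96.4 to 67.9 CPM, the highest named class in both libraries, and -0.41 in 1 clustering). Immature monocyte-like cells were at 78.0 and 55.3 CPM (-0.50, just short of the fold). Abca1 had fewer UMIs, 748 and 769 in all, and turned with the class. In DMSO it was highest in macrophage-like cells (48.7 CPM, 38.8 to 60.5), which were at 25.4 CPM in DAB (log2 ratio -0.94). Mature monocyte-like cells went from 5.98 to 2.12 CPM (-1.49, -2.03 to -0.96), whereas mature PMN-like cells went from 2.57 to 7.30 CPM (1.51, 0.51 to 2.65) on 10 and 51 UMIs, the DAB ones mostly from cluster J. Immature monocyte-like cells, which held 40.1% of Abca1 UMIs in DMSO and 12.7% in DAB, were at 15.3 and 20.8 CPM (0.44, not past the fold), with -0.82 to 1.64 over 6 clusterings. In the macrophage-like class the Abca1 value depended on the clustering, from -0.99 to 0.02. B cell-like cells had 25.0 and 15.9 CPM of Abca1 and 38.2 and 22.4 CPM of Abcg1, levels above several myeloid classes, so for these genes they are no gauge of free RNA.

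The other genes of lipid metabolism were taken as 9 lists of 110 genes, of which 98 had 20 UMIs. Over all cells 35 of the 98 (35.7%) were lower in DAB and 7 (7.14%) higher, with a median log2 ratio of -0.30, beside the 16.7% and 13.8% of all genes given above. The lists were chosen with earlier results of these data known, and the part of that choice in these shares was not tested. Cholesterol synthesis was the list with the largest share: 9 of 13 genes were lower and 0 higher, with a median of -0.56. Stard4, a sterol carrier, was at 49.8 and 23.7 CPM (log2 ratio -1.07), the farnesyl diphosphate synthase Fdps at 279 and 172 CPM (-0.70), and Srebf2, the factor that drives the pathway, at 109 and 80.7 CPM (-0.43, not past the fold). Among uptake and lipoprotein receptors 6 of 11 were lower and 1 higher. The endocytic receptor Lrp1 was at 70.6 and 25.3 CPM (-1.48, lower in 15 of 21 clusters), the HDL receptor Scarb1 at 79.95 and 37.7 CPM (-1.09, lower in 20 of 23), and the scavenger receptor Olr1 at 49.9 and 24.2 CPM (-1.04). The higher gene, Vldlr, was below the level set for naming and is given after its values were seen (3.46 and 12.1 CPM, 1.81, higher in 15 of 17 clusters). Over the clusters compared, 12.3% of all gene and cluster pairs were lower and 12.3% were higher.

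**Figure D4:**
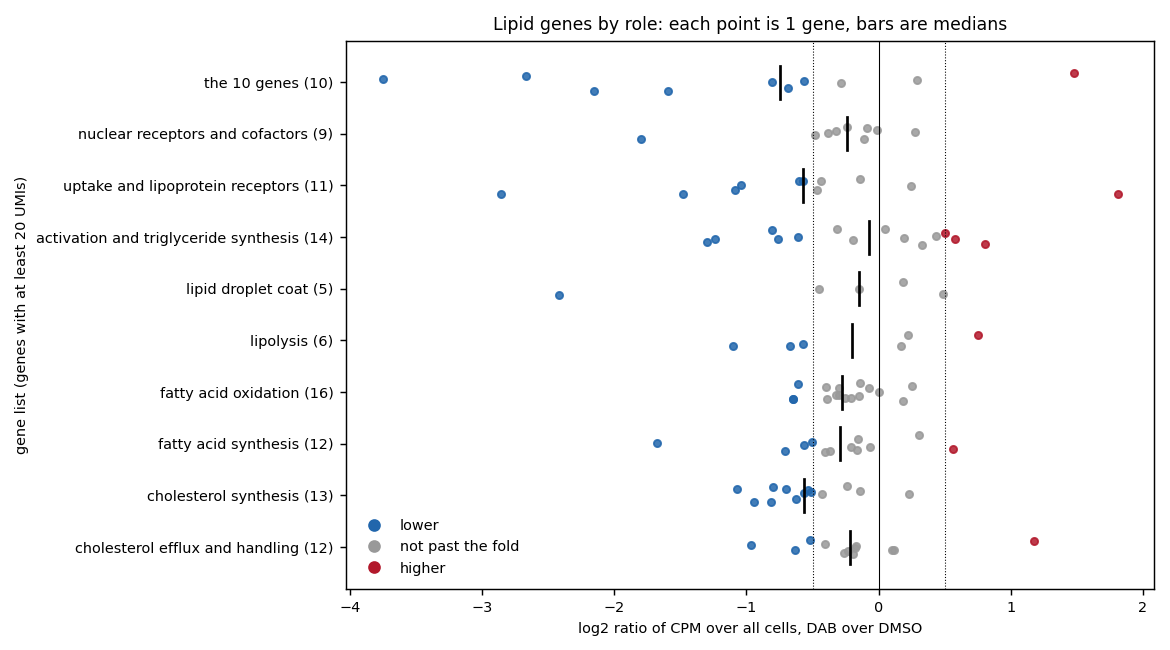
Log2 ratio of CPM over all cells (DAB over DMSO, horizontal axis) of the 10 genes and of the 9 lipid lists (vertical axis, with the number of genes that had at least 20 UMIs); each point is 1 gene, coloured by its call, and black bars are medians. The medians of the 10 genes (-0.75), uptake receptors (-0.57) and cholesterol synthesis (-0.56) lie below the dotted line at a log2 ratio of 0.5 in size.

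The lists of storage and breakdown were mixed, beside 16.7% of all genes lower and 13.8% higher. In activation and triglyceride synthesis 5 of 14 genes were lower and 3 higher. Dgat1, which makes triglyceride, was at 82.6 and 33.6 CPM (-1.30, lower in 19 of 23 clusters and higher in 1, beside 0.643% of genes lower in at least 19). The ligase Acsl4 was at 58.8 and 73.8 CPM (0.33, not past the fold). Of the droplet coat genes 1 of 5 was lower (20%) and 0 higher, with Hilpda at 119 and 107 CPM and Plin3 at 78.5 and 57.6 CPM, neither past the fold. In lipolysis 3 of 6 were lower and 1 higher. Abhd5, the coactivator of Pnpla2, was at 61.2 and 38.5 CPM (-0.67), and Mgll at 117 and 131 CPM (0.17, not past the fold). Fatty acid oxidation had 3 of 16 lower (18.8%, near the share of all genes) and 0 higher. Acadl was among the lower ones (107 and 68.2 CPM, -0.65), with Ucp2 at 716 and 813 CPM (0.18, not past the fold). In fatty acid synthesis 4 of 12 were lower and 1 higher. The desaturase Scd1 was at 26.01 and 8.13 CPM (-1.68) and Scd2 at 278 and 170 CPM (-0.71), while Acly was at 203 and 153 CPM (-0.41, not past the fold). Cholesterol efflux and handling had 3 of 12 lower and 1 higher, with Npc2 at 565 and 364 CPM (-0.64) and Osbpl8 at 347 and 290 CPM (-0.26, not past the fold).

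Among the nuclear receptors and cofactors 1 of 9 was lower (11.1%, beside 16.7% of all genes) and 0 higher, and Pparg itself is not among these 9. Ppard, its ubiquitous relative, was at 57.9 and 41.5 CPM (-0.48, not past the fold), the LXR gene Nr1h2 at 62.5 and 62.0 CPM (-0.01), the corepressor Ncor1 at 151 and 128 CPM (-0.24), and Rxra, the partner of PPARγ, at 8.05 and 6.44 CPM (-0.32). The lower gene was the coactivator Ppargc1b, at 3.69 and 1.06 CPM (-1.80). Ppara had 2 and 5 UMIs.

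The genes whose levels ran most like each member were sought over 42 combinations of class or cluster and library, among 9459 genes with 20 CPM in at least 1 of them. Combinations of a library share its depth and free RNA, and the Spearman coefficients are descriptions. Pparg was most like Adipor2, an adiponectin receptor (coefficient 0.89), Abcd2, a peroxisomal fatty acid transporter (0.89), and Cdh23 (0.88). Among the genes most like Lpl were Itgax (0.91) and Mmp12 (0.89), which monocytes, macrophages and dendritic cells express. Plin2 was most like Aldh3b1 (0.92), Phlda1 and Atp6v0c (both 0.90), and G0s2 most like Id1 (0.89), Ap5b1 (0.85) and S100a8 (0.84), a granulocyte gene. Fabp5 was most like Dcxr, Bst2 and Tmem256 (all 0.82), Cd36 most like Gpalpp1 (0.81), Timp1 and Tfg (both 0.78), and Fabp4 most like Cisd1 (0.66), Pcbp2 (0.64) and Malsu1 (0.63). Fabp4 was at 0 UMIs in most of the combinations, so its coefficients, here and below, rest largely on ties. For Pnpla2 the genes most alike were Ppp1r35 (0.82), Sertad3 (0.81) and R3hdm4 (0.80), for Abca1 Arhgap12, Uhmk1 (both 0.74) and Rftn1 (0.71), and for Abcg1 A930007I19Rik (0.86), Gnaq (0.85) and Mroh1 (0.84).

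Among the 10 genes themselves, coefficients were highest among uptake and carrier genes and for G0s2 with Plin2. The Spearman coefficient was 0.73 for Cd36 with Fabp5, 0.64 for Cd36 with Lpl, 0.62 for Fabp5 with Lpl, and 0.69 for G0s2 with Plin2, but 0.34 for Fabp4 with Lpl, 0.24 for G0s2 with Pnpla2 and near 0 for Plin2 with Pnpla2. Pparg ran with none of the uptake and carrier genes, at 0.09 with Lpl, -0.03 with Cd36 and -0.10 with Fabp5, and was nearest to Abcg1 (0.50) and Plin2 (0.47). Fabp5 with G0s2 (-0.53) and Abca1 with Pnpla2 (-0.59) ran opposite. Fat and stromal cells were looked for, since they express several of these genes: the summed level of 7 of their markers was 9.14 CPM in DMSO and 6.10 CPM in DAB, with Lep at 0.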

How the data were processed

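The data were 2 single-cell libraries (5′ v2 chemistry of 10x Genomics), 1 per condition. The authors deposited raw UMI counts of each gene in each barcode, with no normalization. The submitters' processing notes name Cell Ranger 7.0.0, Seurat 4.3.0, R 4.1.2 and the build mm10. Deposited barcodes held at least 500 UMIs. The 9855 DMSO barcodes (106792967 UMIs) and 11631 DAB barcodes (165506902 UMIs) were read here with Python 3.11.15, numpy 2.4.6 and scipy 1.17.1. Barcodes over 10% mitochondrial UMIs (55 and 89) were left out, and 4 median absolute deviations removed 0. Doublets were scored against simulated doublets and the highest scores (768 and 1066) removed at 0.8% per 1000 barcodes.

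Pearson residuals (theta 100) of 3000 variable genes, without the 10 genes, the lipid lists (36 such genes) and mitochondrial genes, were freed of cell cycle and mitochondrial scores by regression and summarised in 40 components. Mutual nearest neighbours (54640 pairs, 20 neighbours) served to align both libraries before clustering (leidenalg 0.10.2, resolution 0.9). A cluster was named for the marker list of highest mean log2 fold with at least 3 markers and most of the detected ones raised, and at least as many markers as any other list among its 10 leading genes. This scoring was set after the clusters were seen. Platelet markers had the highest mean fold in the macrophage-like cluster but fewer places among its leading genes. Unnamed clusters held 46.2% of DMSO and 45.8% of DAB cells.

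UMIs were summed per class and library and scaled to CPM of that class. Intervals at 95% were exact Poisson for CPM, exact conditional binomial for ratios and Clopper-Pearson for shares, and cover counting error only. Thinning to 1500 UMIs left out 436 DMSO and 292 DAB cells. With 1 library per condition no test across genes was made. On simulated counts for DAB against DMSO over all cells, 98% of 200 changed genes were recovered and 95.4% of intervals over 16670 genes covered the true value. The simulated counts held counting error only, so this checks the calculation and not the spread between cells or libraries. Alternatives were other filters, scalings, weights of cells, clusterings and sizes of the ratio, and, chosen after seeing the data, leaving out clusters K and N and subtracting the B cell-like level.

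The 10 genes, lipid lists, markers and alternatives were chosen with earlier results of these data known. Genes named from lists had at least 20 CPM in a library and a log2 ratio of at least 1 (at most 3 in each direction), or were the 2 of highest DMSO level. Ppard, Rxra, Ppara, Ppargc1b and Vldlr were named after their values were seen. The lists of other cell types used only as checks were fat and stromal (in the report), endothelial (11.7 and 4.87 CPM summed over all cells in DMSO and DAB) and alveolar macrophage (2268 and 964 CPM, with Krt79 and Ear1 at 0 in the macrophage-like class). Some genes that this rule picks are not reported here. Gene positions are from GENCODE vM21. The integrated object, regulons and other assays of the study were not used here.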

Additional observations from a re-analysis of the deposited data

Results flagged for a closer look

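Of the 10 genes, Fabp5, Plin2, Pnpla2 and Abca1 had DAB over DMSO log2 ratios past the fold in opposite directions in different classes. With 1 library per condition these differences between classes were not tested, and the highest and lowest were picked out of 21 classes and single clusters. Fabp5 had 1.38 in B cell-like cells and -3.26 in cluster Q, an unnamed cluster led by Tspan18 and Ccnd1, and the B cell-like value rests on 9 and 37 UMIs and was -0.60 without doublet removal. Plin2 had 1.67 in B cell-like cells, from 5 and 25 UMIs, and -0.64 in granulocyte progenitor-like cells, which reached -0.32 over 6 clusterings. Pnpla2 had 0.61 in activated dendritic-like cells and -0.84 in mature PMN-like cells. Over 6 clusterings these Pnpla2 values reached 0.48 and -0.41, so both were short of the fold in some. Abca1 had 1.51 in mature PMN-like cells and -1.49 in mature monocyte-like cells.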

How the results depend on the processing

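Of the 10 genes, 7 were lower and 1 higher over all cells. With each cell weighing the same, and with thinning to 1500 UMIs, 2 were higher, since Plin2 joined G0s2, and 5 were lower, since Abca1 and Abcg1 left. With a log2 ratio of at least 1 asked for, a size for which no share of all genes is given here, 4 were lower, and of the lipid lists 11 genes were lower and 2 higher in place of 35 and 7. With the same share of each cluster in both libraries, 6 were lower. With the B cell-like level subtracted, 7 were lower, but not the same 7: Abca1 had no value, and Pnpla2 had a log2 ratio of -3.31. The Pnpla2 level within B cell-like cells was 33.6 CPM in DAB, beside 35.4 CPM over all cells, and 25.0 beside 43.2 CPM in DMSO. B cell-like cells are a small class, with 0.724% of Pnpla2 UMIs in DAB and 0.426% in DMSO. Such a share cannot tell free RNA from Pnpla2 of their own. Which of these the subtracted level reflects was not tested, so the value of -3.31 is not read. Over the alternatives that gave a value, the log2 ratio ranged from -0.87 to -0.78 for Pparg, -1.65 to -1.44 for Lpl, -3.06 to -1.79 for Fabp4, -2.89 to -1.77 for Fabp5, -3.75 to -2.11 for Cd36, 0.19 to 0.62 for Plin2 and 1.28 to 1.51 for G0s2. Counts within classes (33 lower, 16 higher) ranged from 26 to 35 lower and from 11 to 20 higher. No result over all cells reversed. Within classes 4 values past the fold turned in direction: without doublet removal Fabp5 had -0.60 in B cell-like and -0.20 in basophil or mast cell-like cells, and with no alignment Cd36 had 0.76 in immature monocyte-like and Abca1 0.018 in macrophage-like cells. The cause was not tested. Of 48 such values, 20 moved by over 1.5 times under at least 1 clustering. In 7 to 9 of the 10 genes the highest named class of DMSO was kept under other clusterings and weights. No paired analysis was possible because each group is 1 library, and for the same reason no replicate could be left out. Depth limits Fabp4, Cd36 and Abca1 within classes, where many counts are below 20 UMIs.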
